A study of Mus musculus with 12 samples.

Results

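Mouse neural progenitor cells (NPCs) carrying shActb_2, the second of the hairpins used against Actb, were set against NPCs carrying shEGFP, a hairpin against enhanced green fluorescent protein that served as the knockdown control. The comparison takes 4 of the 12 arrays of the series, chosen by their titles, with 2 arrays in each group. The NPCs were lines obtained by differentiation of mouse pluripotent stem cells in vitro and were kept on gelatin with EGF and bFGF. Both groups received their hairpin by retrovirus. Per the study's methods the hairpin was driven by the H1 promoter of the vector and infected cells were selected with puromycin, so the controls had undergone infection and selection too. The NPC lines of the study trace back to an embryonic stem cell line, and some were rederived through induced pluripotent stem cells and carry reprogramming factors under a doxycycline-dependent promoter. Which line went onto these arrays and the time from infection to harvest were not given in the sources used here. The study calls its knockdown arrays technical duplicates, so every p-value below measures the spread between arrays and not between independent cultures.

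Actin monomers hold the cofactor Mkl1 (gene symbol Mrtfa) in the cytoplasm. When free monomer is scarce, Mkl1 enters the nucleus and joins serum response factor (Srf) on a short DNA element, the CArG box, which lies upstream of many genes of actins, contractile proteins and adhesion proteins. Muscle cells use these genes at high level, and in other cells they follow the state of the actin cytoskeleton. The comparison asks what the loss of β-actin transcript does to the RNA of progenitor cells.

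Both shEGFP arrays lay on slide 2 and both shActb_2 arrays on slide 3. The hairpin and the slide therefore cannot be told apart in any difference between shActb_2 and a group on slide 2. The other Actb hairpin, shActb_1, shared slide 2 with shEGFP. The arrays overexpressing EGFP, Mkl1 or Srf lay on slide 1. Signal was read as log2 of the processed intensity minus the 75th percentile of the array, so that 0 is the signal of a probe at that percentile. Duplicates correlated at r = 0.997 for shEGFP and 0.996 for shActb_2 across probes detected on both arrays, and 0.759% and 1.54% of these probes differed over 2-fold between duplicates. Detection was uneven within shActb_2, where 72.5% of probes were well above background on replicate 1 and 59.3% on replicate 2, against 66.8% and 66.7% for shEGFP. No spot was saturated. Of 14 neural progenitor markers, 11 were well above background on both arrays of each group, among them Nes, Sox2, Pax6 and Msi1, whereas Sox3, Nr2e1 and Olig2 were not well above background on any of the 4 arrays.

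Actb itself was lower in the cells carrying its hairpin. Its probe read 8.74 and 8.75 in shEGFP and 8.12 and 8.06 in shActb_2, a difference of -0.65 (SE 0.0525, limma adjusted p = 0.000197), or 1.57-fold, without overlap of the groups. The 582 probes within 1 log2 unit of the signal of Actb had a median difference of 0.31 (-0.0056 under quantile normalization, where Actb read -1.03), and 0 of them lay below Actb. The same gene read -0.53 with shActb_1, and the hairpins did not differ detectably at Actb (difference -0.12, SE 0.0522, adjusted p = 0.112). Srf rose from 3.27 and 3.23 to 4.01 and 3.99, a difference of 0.75 (SE 0.126, adjusted p = 0.00316) that stayed under 2-fold, and its second probe read 0.97 higher. Under E1A centring, described below, the first probe read 0.21 higher (adjusted p = 0.239). Mrtfa did not pass the test (difference 0.14, SE 0.108, adjusted p = 0.335). In pooled cells, fewer cells with a transcript and less transcript per cell cannot be told apart.

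Called below are probes with a Benjamini-Hochberg adjusted p under 0.05 in limma and a difference over 2-fold. Of 36173 probes tested, 627 were higher in shActb_2 (1.73%) and 1656 were lower (4.58%). With 1 probe for each named gene, 15879 genes were tested, of which 381 were higher (2.4%) and 537 lower (3.38%), with a median difference of 0.07. Probes without a gene name made up 991 of the lower probes and 168 of the higher ones. The difference also followed signal. Its median was -0.38 among the 8092 probes with a mean below -4 and 0.29 among the 1564 probes above 6. Quantile normalization, which levels this slope, called 749 probes higher and 886 lower, so that 45.8% of calls were increases against 27.5% under the percentile shift. Normexp background correction called 286 higher and 399 lower (41.8% increases). Leaving out shActb_2 replicate 2, the array with the lower detection, also changed which probes passed the filter. The median difference was then 0.07 over 40899 probes, against -0.02 over the 36173, with the lone remaining array assumed to vary like the other groups. Centring on the E1A control probes of the array, which read 0.54 higher in shActb_2 than in shEGFP, moved the median of all tested probes to -0.56, left 197 increases and gave 7885 decreases, and 2.44% of its calls were increases. Differences are given below relative to the percentile shift.

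**Figure D1:**
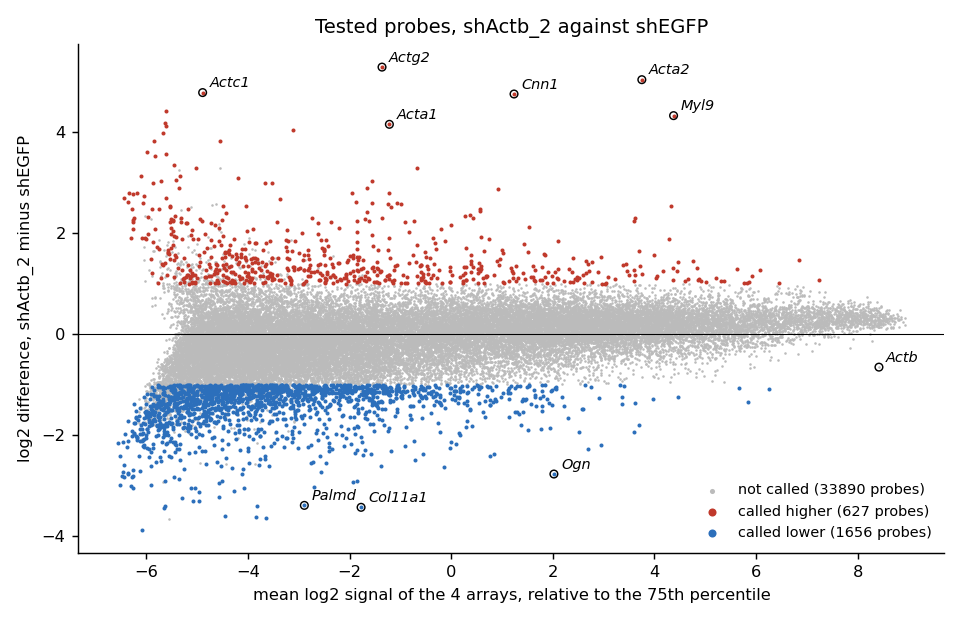
Log2 difference between shActb_2 and shEGFP against the mean log2 signal of the 4 arrays for 36173 tested probes, with called probes in colour and 10 genes circled. Acta2, Actg2, Cnn1, Myl9 and Acta1 stand 4.16 to 5.29 above 0 over a wide range of signal, Actb lies below the cloud of bright probes, and the cloud climbs from a median of -0.38 at the dim end to 0.29 at the bright end.

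The largest increases were those of muscle actins and of proteins that work with them in smooth muscle. Actg2, the enteric smooth muscle actin, read -3.97 and -4.04 in shEGFP and 1.31 and 1.26 in shActb_2, a difference of 5.29 (SE 0.114, adjusted p = 1.32e-06). Acta2, the vascular smooth muscle actin, went from 1.26 and 1.2 to 6.26 and 6.28 (5.04, SE 0.0808, adjusted p = 2.8e-07), or 33.0-fold. Acta1, the skeletal muscle actin, went from -3.11 and -3.48 to 0.88 and 0.85 (4.16, SE 0.12, adjusted p = 6.82e-06). In each of these genes the duplicates lay close together and the groups far apart. Actc1, the cardiac actin, was not well above background on either shEGFP array and read -2.46 and -2.54 in shActb_2, at least 8.97-fold higher (adjusted p = 5.18e-05). Of the 6 actins, 4 were called higher, against 2.4% of all named genes, and the median was 4.47, or 3.66 with Actc1 at its bound. The cytoplasmic actin Actg1 read 0.38 higher (SE 0.0736, adjusted p = 0.00546), under 2-fold, a direction that turned under E1A centring. Actin transcripts are near-identical over long stretches, and how far the probes tell them apart was not tested.

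Among 20 tested genes of the contractile apparatus, 7 were higher and 0 lower, with a median of 0.66, where 2.4% of all named genes were higher and 3.38% lower. Cnn1, calponin, went from -1.12 and -1.17 to 3.64 and 3.60 (4.76, SE 0.0701, adjusted p = 2.8e-07). Myl9, the regulatory light chain of smooth muscle myosin, went from 2.24 and 2.18 to 6.57 and 6.52 (4.33, SE 0.082, adjusted p = 6.54e-07). Tagln, transgelin, went from 3.24 and 2.88 to 5.63 and 5.55 (2.53, SE 0.221, adjusted p = 0.000268). These genes and Acta2 are known Srf targets that the study named on these arrays, so they are no independent evidence of direction. Myh11, the smooth muscle myosin heavy chain, was not well above background in shEGFP and was at least 3.99-fold higher. Smtn (1.14), Tpm2 (1.1) and Tagln2 (1.09) rose little over 2-fold, and the second Tpm2 probe read 0.79. Smtn, Tpm2 and Tagln2 lost their calls under quantile normalization and under E1A centring, each of which left 4 of the list higher. Of 17 tested striated muscle genes, 2 rose, Tnnt3 by 2.60 and Ankrd1 by 1.79, while 9 read above 0 and the median was 0.02. Csrp3 was not well above background in shActb_2 and was at least 1.52-fold lower (limma adjusted p = 0.0204). It lost its call in 5 of the 13 alternatives that gave it a value.

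CArG boxes stood in the promoters of some of these genes. Promoter windows of RefSeq (GRCm38.p6), from 250 bases before to 50 bases after the start of a gene, were searched on both strands for the exact CArG consensus, which reads the same on either strand. Windows were matched for 12608 of the named genes tested, and 221 of these genes (1.75%) held the box. It was found in 13 of 290 genes called higher (4.48%) and in 6 of 405 called lower (1.48%). The 6 include Tinag, one of the 15 largest decreases, with its box 63 bases before the start. The 13 include Olfr918, which was not well above background in shEGFP. Among the 11 actin and contractile genes called higher, 8 had a window and 3 of these held the box, Actc1, Myl9 and Acta1. A match is a string of letters and not a bound site, and a window without one may hold a looser form or a box further out. The stretches below, 100 bases each and read 5′ to 3′ along the gene, show the box in capitals for those 3 genes and for Dusp5 and Fhl2, called higher and described below. Dusp5 has 2 boxes end to end.
Actc1, chr2:114052868-114052967, minus strand: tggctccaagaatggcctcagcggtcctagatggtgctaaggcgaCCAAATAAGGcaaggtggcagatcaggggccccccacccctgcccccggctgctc
Myl9, chr2:156775258-156775357, plus strand: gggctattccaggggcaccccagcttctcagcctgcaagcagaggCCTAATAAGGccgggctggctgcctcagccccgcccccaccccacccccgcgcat
Acta1, chr8:123894794-123894893, minus strand: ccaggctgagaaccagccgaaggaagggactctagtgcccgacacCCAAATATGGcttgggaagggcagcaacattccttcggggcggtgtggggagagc
Dusp5, chr19:53529018-53529117, plus strand: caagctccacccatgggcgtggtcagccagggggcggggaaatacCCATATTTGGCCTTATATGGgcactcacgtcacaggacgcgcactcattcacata
Fhl2, chr1:43163938-43164037, minus strand: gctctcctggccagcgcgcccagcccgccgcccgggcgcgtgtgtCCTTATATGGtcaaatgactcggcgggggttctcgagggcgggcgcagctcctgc

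The first base of the box lay 47 bases before the start in Actc1, 73 in Acta1, 161 in Myl9, 82 in Dusp5 and 31 in Fhl2. A second Fhl2 start in the table has another box 96 bases before it.

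Outside muscle, the leading increases were of mixed kind. Serpinb2, an inhibitor of plasminogen activators, read -5.11 and -5.22 in shEGFP and -2.19 and -2.15 in shActb_2 (3.00, SE 0.198, adjusted p = 0.000103). Plaur, the receptor of urokinase, rose by 1.2. They were the 2 called of 8 plasminogen genes in the list, where 2.4% of all named genes were higher. The keratins Krt76 (3.29, from -2.34 and -2.28 to 0.94 and 1.02) and Krt27 (3.00), the surface glycoprotein Thy1 (2.90), the tubulin Tuba8 (2.88), the transcriptional cofactor Eya2 (2.81), the kinase Sgk2 (2.80), Glipr1 (2.69) and 2610528A11Rik (3.03) completed the 15 largest increases, whose SEs ran from 0.0701 to 0.237 and whose adjusted p from 2.8e-07 to 0.000274. The groups did not overlap in any of them. Kcnmb1, a subunit of the smooth muscle potassium channel, was not well above background in shEGFP and was at least 4.38-fold higher, as were Vmn2r42 (at least 8.12-fold), the mast cell protease Mcpt8 (at least 4.89-fold) and Olfr918 (at least 4.35-fold).

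The lists of adhesion and actin turnover genes stand beside 2.4% higher and 3.38% lower over all named genes. Of 30 focal adhesion and LIM protein genes, 2 were called, Fhl2 (1.38, SE 0.0571, adjusted p = 2.34e-05) and the dim Fhl1 (at least 1.59-fold), and 0 were lower. Yet 23 of the 30 read above 0 and the median was 0.48, against 0.07 over all named genes. Vcl, vinculin, read 0.71 higher (adjusted p = 0.00256) and Flna, filamin, 0.43 higher (adjusted p = 0.00344), both under 2-fold. Of 27 regulators of actin monomers and filaments, Dstn, a filament-severing protein, rose by 1.03 and 0 were lower, with a median of 0.36. Dstn lost its call under quantile normalization, under E1A centring and without shEGFP replicate 1 or shActb_2 replicate 2, and Fhl1 lost its call in 5 of the 13 alternatives that gave it a value. These lists hold many bright probes, and their medians under quantile normalization were 0.33 and 0.20. Under E1A centring they turned to -0.06 and -0.18, Fhl2 lost its call as well, and the adhesion list had 0 higher and 2 lower.

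**Figure D2:**
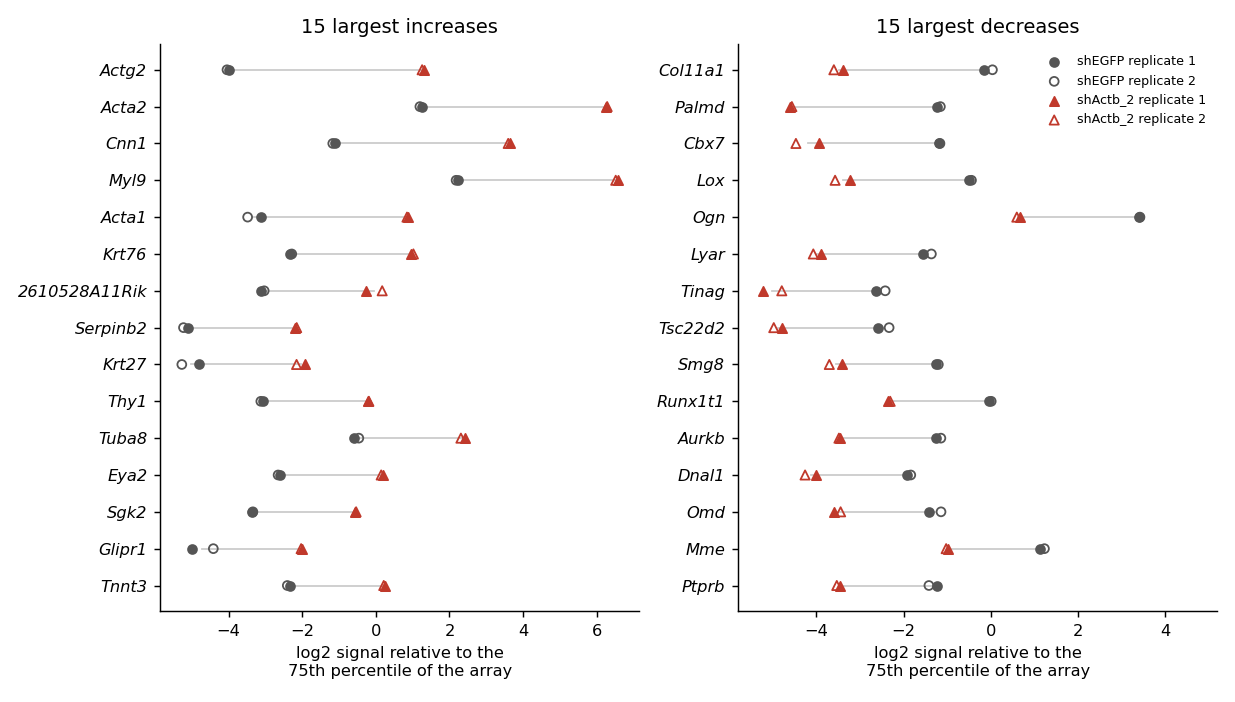
Log2 signal of each of the 4 arrays, relative to the 75th percentile of the array, for the 15 largest increases (left) and the 15 largest decreases (right) among genes detected on all 4 arrays, where grey lines join the group means. In each gene the replicates of a group lie closer together than the groups do. Differences run from Actg2 with 5.29 to Tnnt3 with 2.60 on the left and from Col11a1 with -3.43 to Ptprb with -2.16 on the right.

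The 15 largest decreases included several genes of the extracellular matrix. Col11a1, a fibrillar collagen chain, read -0.15 and 0.04 in shEGFP and -3.38 and -3.60 in shActb_2 (-3.43, SE 0.141, adjusted p = 2.34e-05). Lox, which crosslinks collagen, went from -0.51 and -0.44 to -3.23 and -3.57 (-2.92, SE 0.207, adjusted p = 0.000128), and its second probe read -2.42. Ogn, a small leucine-rich proteoglycan, went from 3.39 and 3.42 to 0.67 and 0.60 (-2.77, SE 0.144, adjusted p = 5.01e-05). The related proteoglycans Omd and Dcn fell by 2.24 and 1.55. Palmd, palmdelphin, went from -1.23 and -1.16 to -4.61 and -4.57 (-3.39, SE 0.175, adjusted p = 4.94e-05). The corepressor Runx1t1 (-2.32), the membrane peptidase Mme (-2.19), the receptor phosphatase Ptprb (-2.16) and Tinag (-2.48) fell as well. All 9 of the genes so far named here among the 15 largest decreases were also called lower with shActb_1.

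Calls in the matrix list went both ways. Of 34 tested collagen and matrix genes, 3 were higher and 4 lower, 23 read below 0 and the median was -0.22, beside 2.4% higher and 3.38% lower over all named genes. The counts were 2 higher and 6 lower under quantile normalization and 2 higher and 12 lower under E1A centring. Besides Col11a1 and Lox, Col8a1 fell by 1.35 and Vcan, versican, by 1.05, with -0.59 at the second Vcan probe. Col6a3 rose by 4.04 (SE 0.192, adjusted p = 3.56e-05), from -5.28 and -4.99 to -1.10 and -1.08, with 1 of its shEGFP arrays not well above background. Mmp3, a matrix-degrading protease, rose by 2.22 and the basement membrane collagen Col4a2 by 1.03. Of the 18 integrin and laminin genes in the list 1 was called, Itga6, higher by 1.45.

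The other 6 of the 15 largest decreases had a different profile over the series. Cbx7, a Polycomb protein, read -1.19 and -1.17 in shEGFP and -3.93 and -4.47 in shActb_2 (-3.02, SE 0.313, adjusted p = 0.000487), but 0.16 between shActb_1 and shEGFP. Lyar (-2.53), Tsc22d2 (-2.42), Smg8 (-2.33), the mitotic kinase Aurkb (-2.27) and Dnal1 (-2.26) were alike. In each of the 6, all 4 arrays of slide 2, shEGFP and shActb_1, lay above all 8 arrays of slides 1 and 3. This held for 4438 of the 36173 tested probes (12.3%) and for 824 of the 1656 lower probes (49.8%), and slide 2 lay below all other arrays for 3051 tested probes (8.43%) and 179 of the 627 higher ones (28.5%). Part of this is fixed by the call, since a lower probe has shEGFP above shActb_2. Among named genes the pattern held for 211 of 537 lower genes (39.3%) and 105 of 381 higher genes (27.6%), including Krt76, Krt27, Tuba8, Eya2 and Olfr918. Without the patterned probes, 448 probes were higher and 832 lower.

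**Figure D3:**
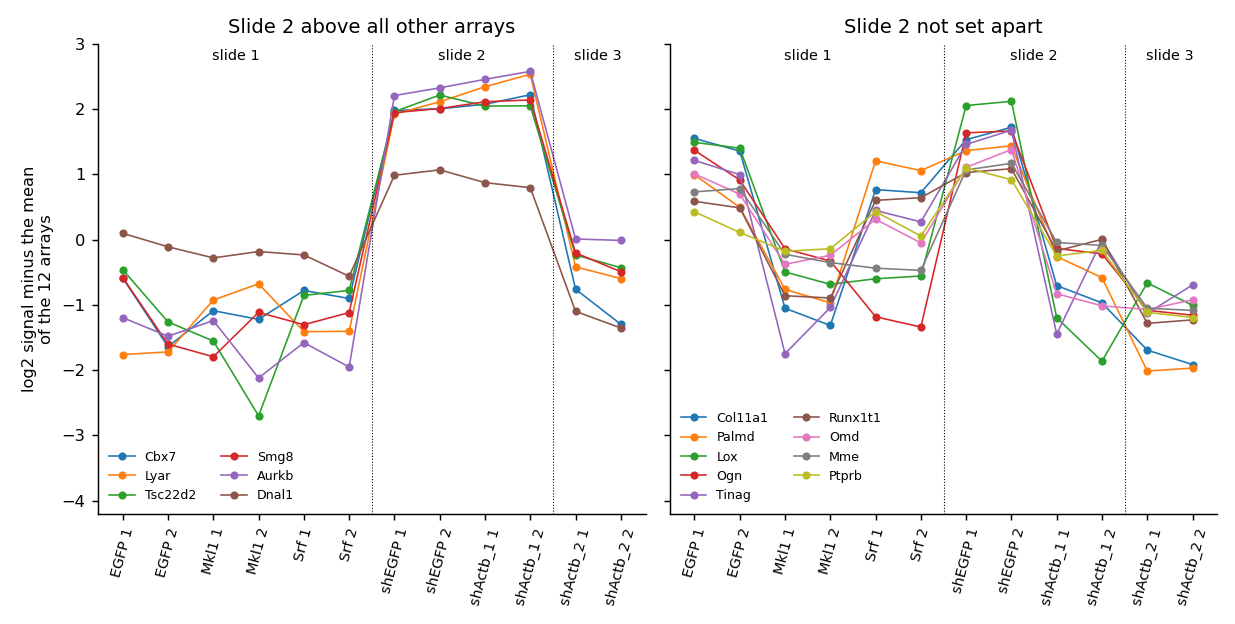
Log2 signal of the 15 largest decreases on all 12 arrays, each gene shown minus its mean over the arrays, with dotted lines between slides. On the left, 6 genes are high on the 4 arrays of slide 2 and lower on the 8 others, and on the right, 9 genes are high in shEGFP and lower in both shActb groups.

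The lists of genes that respond to growth signals and to cell shape likewise stand beside 2.4% higher and 3.38% lower over all named genes. Among 21 immediate-early genes, Arc (1.27), Jun (1.09) and Fosl1 (1.02) rose and 0 fell, while Fos (0.21, adjusted p = 0.239) and Egr1 (-0.37, adjusted p = 0.0589) did not pass the test. Under quantile normalization only Arc kept its call of these 3. Under E1A centring 0 of the 21 were higher and 4 were lower. Of 14 MAPK feedback genes, the phosphatases Dusp5 (1.42) and Dusp4 (1.16) rose and Spry1, an inhibitor of receptor tyrosine kinase signalling, fell by 1.42. E1A centring left 0 of these 14 higher and 2 lower. Of 20 targets of Yap and Taz, Ankrd1 (1.79), Foxf2 (1.67) and Fjx1 (1.01) were higher, whereas the well-known targets Ccn1 (0.41) and Ccn2 (-0.27) stayed under 2-fold. Fjx1 lost its call in 3 of 14 alternatives.

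Of 14 tested genes in the Wnt list 8 were called, 5 higher and 3 lower, where 2.4% of all named genes were higher and 3.38% lower. Nkd1, an inhibitor of the pathway, rose from -2.74 and -2.74 to -0.51 and -0.48 (2.25, SE 0.127, adjusted p = 6.38e-05) and Rnf43, a ligase that removes Wnt receptors, by 1.62. The ligand Wnt7b rose by 2.17, Apcdd1 by 1.36 and the transcription factor Lef1 by 1.01. Of the secreted Dickkopf proteins, Dkk1 and Dkk3 each fell by 1.4 and Dkk2 by 1.17. The groups were apart in each.

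Of 20 TGF-β and BMP genes in the list, 3 were higher and 1 lower, and the counts here stand beside the same shares over all named genes. This list had 2 higher and 1 lower under quantile normalization, and 1 higher and 5 lower under E1A centring. The activin antagonist Fst, not well above background in shEGFP, was at least 3.1-fold higher, Bmp7 rose by 1.31, and Bmp4 fell by 1.01. Id2, a target of BMP signalling, read 2.52 and 2.54 in shEGFP and 3.66 and 3.40 in shActb_2, and its difference of 1.0 sat at the 2-fold bar and lost its call in 5 of 14 alternatives. Of 15 Notch genes, the ligand Jag2 (1.56) and the target Nrarp (1.29) rose. Of 15 chemokines and cytokines, Cxcl14 rose by 2.21, Ccl7 fell by 1.48 and Cxcl16 by 1.02. Bmp7, Cxcl14 and Cxcl16 had the slide 2 pattern. Among 24 interferon-stimulated genes 18 read below 0, the median was -0.45 and Ifi44 alone was called, lower by 1.25. Under quantile normalization 1 was higher and 2 were lower, and under E1A centring 0 were higher and 12 lower, with a median of -0.99.

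Hypoxia and glycolysis genes shared a direction. All 17 read above 0, from Eno1 with 0.21 to Adm with 1.67, and the median was 0.71, against 0.07 over all named genes. Of the 17, 4 were called higher and 0 lower, where 2.4% of all named genes were higher and 3.38% lower. These 4 were Adm, a vasodilator peptide, Ankrd37 (1.39), Ndrg1 (1.36) and Bnip3 (1.31), all known as hypoxia-induced. Bnip3 read 4.03 and 4.35 in shEGFP and 5.49 and 5.5 in shActb_2, and both of its other probes read 1.31. Ankrd37 and the first Bnip3 probe were low on slide 2, and the other 2 Bnip3 probes did not have that pattern. Under quantile normalization 16 of the 17 stayed above 0 with a median of 0.59, and under E1A centring 12 did, with a median of 0.18 and 1 call. With shActb_1 the median of the list was 0.20.

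The counts of the growth and stress lists stand beside 2.4% higher and 3.38% lower over all named genes, and lists of this size with few or 0 calls are no result about their members. Of 28 replication and mitosis genes 0 rose, and the 2 lower, Aurkb and Ccne2, both had the slide 2 pattern. Ccne2, cyclin E2, was not well above background in shActb_2 and was at least 4.37-fold lower. The other large bounds among decreases were those of Olfr805 (at least 3.37-fold, with its call lost in 4 of 13 alternatives), Gm34484 (3.35), Serpinb1c (3.23) and Nalcn, a sodium leak channel (3.22). Hspa1a, an inducible heat shock protein, rose by 1.16, and it too was low on slide 2. Plin4, the 1 of 15 fatty acid genes called, fell by 1.28, with shActb_2 arrays at -3.46 and -4.56, and lost its call in 5 of 14 alternatives. The p53 targets (15 tested), Atf4 and unfolded protein genes (16) and cholesterol synthesis genes (18) gave 0 calls by limma.

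**Figure D4:**
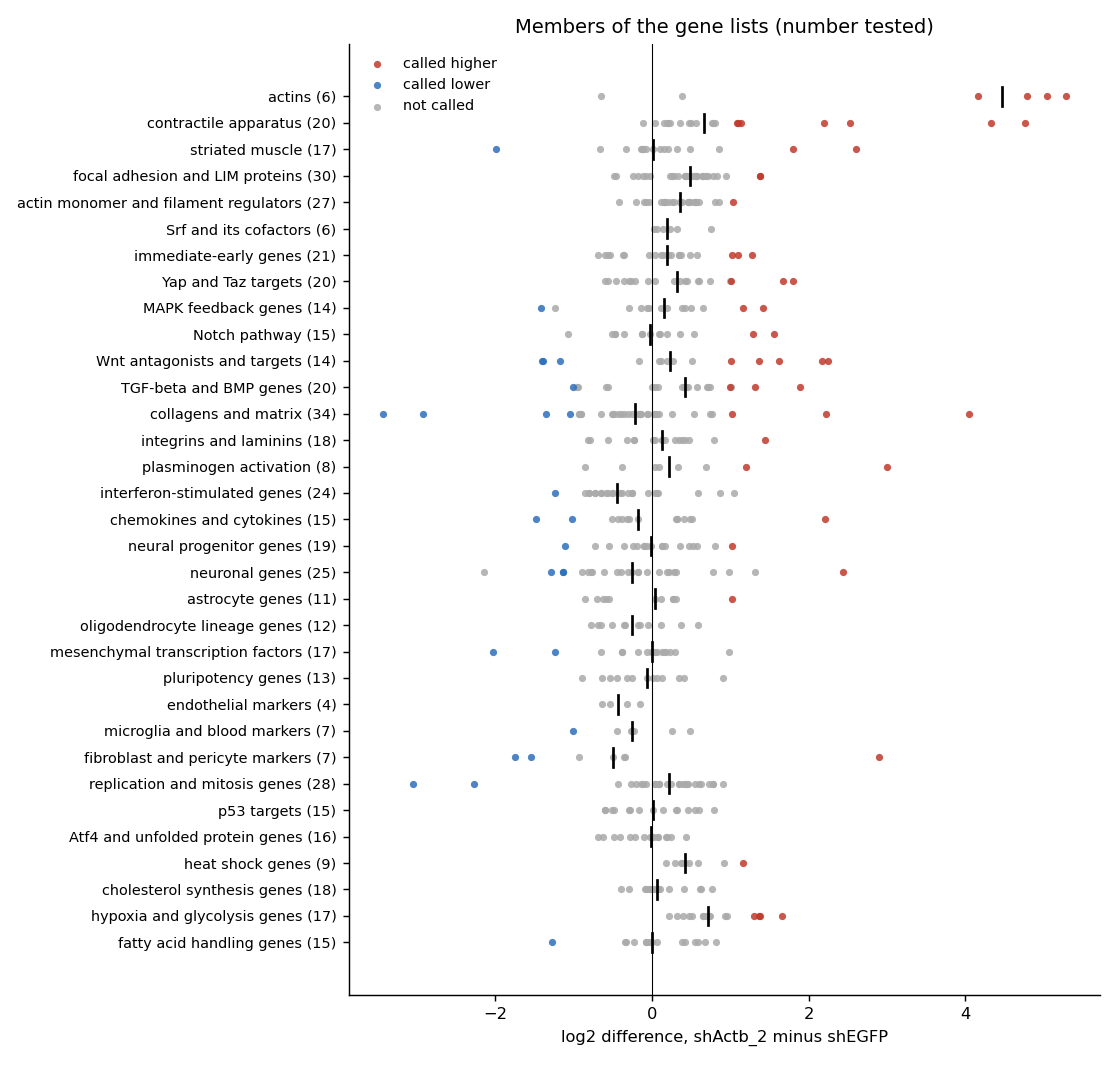
Log2 difference between shActb_2 and shEGFP for the tested members of 33 gene lists, with 1 probe for each gene, black bars at the list medians and the number tested in brackets. The actins have a median of 4.47 with Actc1 at its measured value. Hypoxia and glycolysis genes (17), heat shock genes (9) and Srf and its cofactors (6) all lie above 0, and most other lists spread around 0.

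The counts of the neural identity lists stand beside 2.4% higher and 3.38% lower over all named genes. Of 25 neuronal genes 1 was higher and 3 were lower, and lists with so few calls are no result about their members. Of 19 neural progenitor genes, Sox9 rose by 1.02 and Slc1a3, a glutamate transporter of radial glia, fell by 1.11. Sox9 was low on slide 2 and lost its call in 4 of 14 alternatives. Nes (0.80, adjusted p = 0.00467) and Sox2 (-0.35, adjusted p = 0.0873) were not called by limma. Of 25 neuronal genes, Nefl, a neurofilament, rose from -0.74 and -0.56 to 1.72 and 1.85 (2.44, SE 0.203, adjusted p = 0.000226). The microtubule proteins Stmn2 and Map2 fell by 1.29 and 1.14, as did Dlx5 by 1.14. Acsbg1 was the 1 of 11 astrocyte genes called, higher by 1.02, and it lost its call under quantile normalization, under E1A centring and without shActb_2 replicate 2. Of 17 mesenchymal transcription factors, Meox2 (-2.03) and Foxc1 (-1.23) fell and 0 rose, 9 read above 0 and the median was 0.01. None of the 12 oligodendrocyte lineage genes and none of the 13 pluripotency genes was called by limma.

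Markers of other cell types were detected in part. In shEGFP, 3 of 7 endothelial, 4 of 6 microglia and blood and 5 of 7 fibroblast and pericyte markers were well above background on both arrays. Kdr read 3.17 and 2.86 there, Itgam 3.28 and 3.00, and Col3a1 5.61 on each. Of 7 endothelial markers 4 (Cdh5, Tek, Tie1 and Emcn) were not well above background on any of the 4 arrays. Ptprc, of the microglia and blood markers, fell by 1.02 and lost its call in 8 of 14 alternatives. The fibroblast and pericyte markers Pdgfrb and Dcn fell by 1.75 and 1.55 and Thy1 rose, and the summed level of this list, in units of the 75th percentile, went from 61.4 and 60.3 to 34.0 and 32.4. Most of this sum came from Col3a1, itself a matrix gene. The summed neural progenitor level went from 254 and 258 to 366 and 368, most of it from Vim, which read 0.52 higher. Of the 19 tested genes in the neural progenitor list, 9 read above 0 and 10 below, with a median of -0.02.

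Against shEGFP, shActb_1 gave 117 higher genes (0.737%) and 267 lower ones (1.68%) over the same 15879. Both comparisons use the same shEGFP arrays, so the values are only set side by side. Of the 381 genes higher with shActb_2, 88 were also called with shActb_1, and of the 537 lower, 111 were. Acta2 read 4.42 with shActb_1, Cnn1 4.23, Acta1 4.05, Tagln 2.2 and Lox -3.62. Of the 15 largest increases 11 were called with both hairpins, and of the 15 largest decreases 9 were.

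The hairpins also differed. Tested directly, shActb_2 was higher than shActb_1 at 358 of 15535 genes (2.3%), those of the set above whose probe was also tested between the hairpins, and lower at 297 (1.91%), across slides 2 and 3. Actg2 was 2.54 higher with shActb_2 (adjusted p = 8.52e-05), Actc1 2.71 and Myl9 1.21. Id2 read 1.0 with shActb_2 and -1.15 with shActb_1, a difference between hairpins of 2.15 (adjusted p = 0.000678). Jag2 read 1.56 and -1.05 (2.61, adjusted p = 0.000492), and both genes were called in opposite directions with the hairpins. So was Vmn2r42, which read 3.83 with shActb_2 and -1.20 with shActb_1 (limma adjusted p = 0.0477). It was not well above background in shEGFP and lay below the lowest detected signal in shActb_1. Tbx1 (2.59) and Tmem255a (2.41) were also higher with shActb_2 than with shActb_1. They were not called between shActb_1 and shEGFP, and the second probe of Tmem255a read -0.43 between shActb_2 and shEGFP. Bmp4 and Dkk1 were lower with both hairpins but less so with shActb_2, by 1.68 and 1.92. Of the 20 TGF-β and BMP genes, 8 were higher in shActb_2 than in shActb_1 and 1 was lower. Among genes detected on all 6 knockdown arrays and called lower against both shEGFP and shActb_1, those with the largest differences between hairpins, Cbx7, Lyar, Aurkb, Smg8 and Tsc22d2, all had the slide 2 pattern.

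Cells overexpressing Mkl1, compared with cells overexpressing EGFP, share no array with these groups. Of the named genes above, 15013 were tested there, of which 284 were higher (1.89%) and 294 lower (1.96%). Of 353 genes higher with shActb_2 and tested there, 137 were also called higher, which is 38.8% of these and 48.2% of the genes Mkl1 raised, and 5 were called lower. Of 418 lower genes, 96 were also lower, 23% of these and 32.7% of the genes Mkl1 lowered, and 2 were higher. Among genes with the slide 2 pattern, 13 of 99 higher and 0 of 162 lower genes were called the same way with Mkl1. Without the pattern they were 124 of 254 and 96 of 256. The pattern is itself defined with the arrays of slide 1, so the split is not independent of the Mkl1 values. Acta2 read 6.93 with Mkl1, Cnn1 6.56, Actg2 5.41, Serpinb2 4.74 and Arc 2.77. Col11a1 (-2.64), Dkk1 (-2.41), Lox (-2.04), Pdgfrb (-1.69) and Palmd (-1.61) were lower in both. Krt76 (0.09), Cxcl14 (0.11), Mmp3 (-0.74), Bnip3 (0.30) and Ccl7 (-0.35), called with shActb_2, were not called with Mkl1. Among the genes called with both hairpins, 56 of 88 higher genes and 74 of 98 tested lower genes were also called in that direction with Mkl1.

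**Figure D5:**
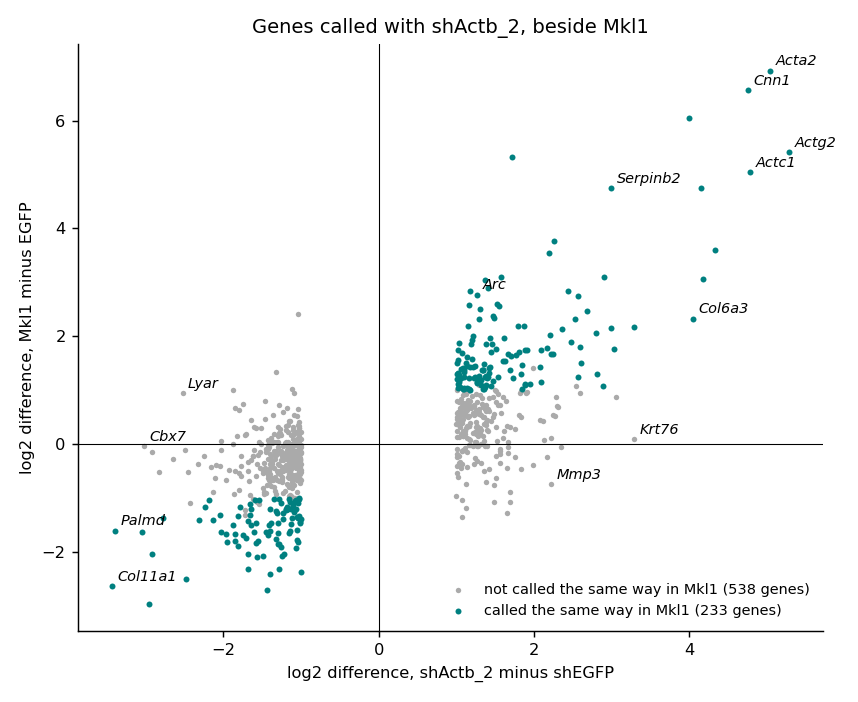
Log2 difference between Mkl1 and EGFP arrays against that between shActb_2 and shEGFP for genes called with shActb_2 and tested in both, where green points are called in the same direction with Mkl1 (137 higher and 96 lower genes) and grey points are not. Acta2, Cnn1 and Actg2 lie far out on both axes, whereas Krt76 (0.09) and Cbx7 (-0.04) lie near 0 on the vertical axis.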

How the data were processed

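The data were 1-colour Agilent arrays of 62976 features, 12 in all. The submitters' Feature Extraction 11.5.1.1 gave the deposited processed signal intensity of each spot after background subtraction. A deposited table of log2 values differs from log2 of these intensities by a constant for each array, within 0.01 for all but a few probes (lowest share 99.97%). Well-above-background and outlier flags were deposited as other columns.

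Here log2 intensity minus the 75th percentile of the array was used, control and outlier spots were dropped, spots of a probe were averaged, and probes well above background on both arrays of at least 1 group were tested. Of 55681 probes, 28020 carried a gene symbol. A gene was read from its brightest tested probe, by mean over the 12 arrays. limma 3.58.1 fitted 6 group means over the 12 arrays with eBayes (R 4.3.3), and called an adjusted p under 0.05 with over 2-fold. For a group not well above background, folds are bounds against the lowest detected signal. On 36107 simulated probes for this comparison, of which 100 were changed by 1.5 log2 units and 100 by 2, it recovered 73% and 88%. The number of arrays limits the precision.

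Named genes were Actb, Srf, Mrtfa, Acta2, Tagln, Myl9 and Cnn1, the 15 largest changes each way among genes detected on all 4 arrays, the 5 largest bounds each way, up to 6 called members of each list with members that define it, and the 5 largest differences between hairpins each way among genes detected on all 6 knockdown arrays and also called against shEGFP. Other list members and markers given with a value (Tagln2, Col4a2, Dkk2 and Lef1 among those called) were named after their values were seen. The lists are hand-made and do not hold every gene of a pathway or family. Members, lists and rules were chosen with earlier results of these data known.

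Alternatives were other background corrections and normalizations, the deposited table, filters on dim probes, fewer arrays in the fit, a replicate block, a variance trend and leaving out each array. The background was corrected with normexp (offset 50) on the median spot signal. E1A centring and leaving out probes with the slide 2 pattern were chosen after seeing the data.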

Additional observations from a re-analysis of the deposited data

Results flagged for a closer look

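Tested directly, 635 probes were higher in shActb_2 than in shActb_1 and 1147 were lower, so the arrays of the hairpins differed. They lie on slides 3 and 2, and hairpin and slide cannot be told apart.

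The E1A control probes, which take no part in the comparison, read 0.54 higher in shActb_2 than in shEGFP (8 probes, 0.29 to 0.73 each), where the range over the 12 arrays was 2.62 to 3.29 and shActb_1 read 2.68 against 2.66 for shEGFP.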

How the results depend on the processing

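Precision is limited to 2 arrays for each group, dim probes and the confounding of slide with group. The fall of Actb passed the test under all 14 alternatives run, from -0.61 to -1.19. Of 102 named genes, 0 changed call with the replicate block, which gave 623 increases and 1706 decreases. The replicate numbers are only numbers (r = 0.20 between deviations of same-numbered arrays), and the block moved neither count by over 1.5 times. Calls were lost for 21 named genes with normexp, 24 with E1A centring, 11 with quantile normalization, and 9, 9, 4 and 2 without shActb_2 replicate 2, shEGFP replicate 1, shActb_2 replicate 1 and shEGFP replicate 2. Id2, Plin4, Fosl1, Sox9, Dstn and Ptprc each lost their call in 4 to 8 of 14 alternatives, and Csrp3, Fhl1 and Olfr805 in 4 or 5 of the 13 that gave them a value. Mrtfa, never called, read -0.010 under quantile normalization and -0.40 under E1A centring.

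Increases and decreases against shEGFP were 627 and 1656. They were 286 and 399 with normexp and 886 decreases with quantile normalization. They were 197 and 7885 with E1A centring, 482 and 1026 with detection on all 4 arrays, 7848 and 6742 by adjusted p alone, 381 and 537 with 1 probe per named gene and 448 and 832 without slide-patterned probes. Leaving out 1 array, with the lone array left assumed to vary like the other groups, gave 559 to 1160 increases and 1160 to 2463 decreases. Both 1160s came without shActb_2 replicate 2, and 984 and 2463 without its replicate 1. The cause was not tested.

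Against shActb_1 the counts were 635 and 1147. They were 155 and 265 with normexp, 685 decreases with quantile normalization, 234 and 6070 with E1A centring, 397 and 724 with detection on all 4 arrays, 5920 and 5451 by adjusted p alone, 358 and 317 with 1 probe for every named gene tested between hairpins and 1637 decreases by fold alone. Leaving out 1 array gave 481 to 1175 increases and 803 to 1712 decreases.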
